A study of Mus musculus with 123 samples.

Results

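The neurons described here were single dorsal root ganglion (DRG) neurons of mice, taken 7 days after sciatic nerve transection (SNT), in which Calca stood below 100 CPM. CPM, the depth-scaled level used throughout, is a gene's expected count divided by the total of its cell and multiplied by 1e+06. The rule took 29 of the 47 day 7 neurons in the table from which the authors had removed outlying cells, a table of 106 single neurons in a series of 123 samples. Of the 29 neurons, 22 came from the SNT side (14 female and 8 male by their labels) and 7 from the control side (4 female and 3 male). The other 18 day 7 neurons, 11 SNT and 7 control cells, had Calca of at least 100 CPM.

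All of these mice were adult C57BL/6 mice about 2 months old. The right sciatic nerve had been cut at the mid thigh under ketamine and xylazine, and ganglia L3–L5 of the cut side gave the SNT neurons. Control neurons came from the same ganglia of the opposite side of operated mice, so no group was free of surgery. Somata were picked singly by hand after enzymatic dissociation and amplified with the Smart-seq2 protocol, which copies full-length poly-A RNA and marks no single molecules. Some neurons of these ganglia send no axon into the sciatic nerve, and no label says which picked cell had been cut. The protocol label of these cells names both 3 and 7 days, and day 7 was taken from the sample titles.

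Calca encodes the peptide CGRP, which marks peptidergic sensory neurons, and Nefh encodes the neurofilament heavy chain of large neurons with myelinated axons. The latter group holds the low-threshold mechanoreceptors of skin and the proprioceptors of muscle, and proprioceptors are known for Pvalb, Runx3, Etv1 and Whrn. When a peripheral axon is cut, sensory neurons are known to switch on transcription factors such as Atf3, Jun and Sox11, together with growth proteins and neuropeptides that intact neurons hold at low levels.

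Both sides carried the neurofilament marker of large neurons at high levels. Nefh lay between 1017 and 8013 CPM in the 22 SNT cells, with a median of 2806, and between 1599 and 7368 CPM in the 7 control cells, with a median of 3834. The means were 3638 ± 2326 CPM (SD over cells, n = 22) and 3907 ± 1946 CPM (SD, n = 7), a log2 ratio of -0.10. The ranges overlapped, with 7 SNT cells below every control cell and 2 above. All 29 cells stood above 100 CPM of Nefh. So did the day 7 neurons with Calca of at least 100 CPM, so Nefh at this level was not particular to the 29. Among 27 markers of large myelinated neurons, none was at 0 in every cell of a side, and their summed level ran from 9494 to 47168 CPM on the SNT side and from 18667 to 46446 CPM on the control side. The labelled tissue was also borne out by the pan-neuronal markers, whose sum was between 9256 and 17138 CPM in the SNT cells and between 9943 and 13715 CPM in the control cells.

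Calca chose the cells, so its values are only a description. It was at 0 in 17 SNT cells and in 3 control cells, and its highest values were 66.3 CPM in SNT cell 22 and 13.6 CPM in control cell 1. The nearest cells outside the limit were control cell 14 with 155 CPM of Calca and SNT cell 29 with 998 CPM. Control cell 14 held 127 CPM of Nefh and 947 CPM of P2rx3, a receptor of non-peptidergic nociceptors. Calcb, the second CGRP gene, is close enough in sequence for reads to be shared with Calca, and its counts are uncertain for that reason.

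**Figure D1:**
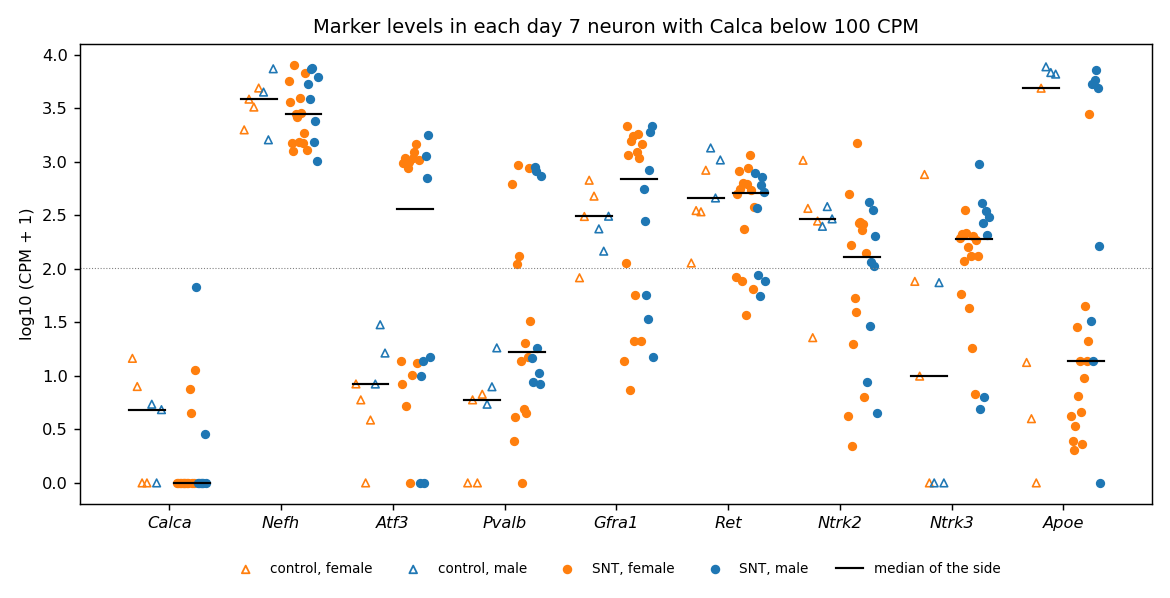
Each point is 1 day 7 neuron with Calca below 100 CPM, triangles for the 7 control cells and filled circles for the 22 SNT cells, orange for female and blue for male, on a log10 (CPM + 1) axis with the dotted line at 100 CPM. Nefh overlapped between the sides, whereas Atf3 split into 11 SNT cells above 700 CPM and 11 below 14 CPM, and 6 SNT cells held Pvalb above 500 CPM.

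The labels name no animal, so the cells of 1 side count as 1 sample and no test was run. Every value is a level per cell, a range, or a log2 ratio of the side means, with 1 CPM added to each mean. Library totals ran from 312340 to 965292 counts on the SNT side and from 522129 to 1007507 on the control side, and 7723 to 8889 genes and 8265 to 8917 genes stood above 10 CPM. Transcripts of satellite glia differed in abundance from cell to cell. Apoe, a lipid carrier that satellite glia express strongly, exceeded 1000 CPM in 4 of 7 control cells (57.1%, exact Clopper-Pearson 95% interval 18.4 to 90.1%) and in 5 of 22 SNT cells (22.7%, 7.82 to 45.4%). These intervals cover counting error only. The 4 control cells included all 3 male ones, so without them the control side was control cells 1, 3 and 5, all female. Of the 5 SNT cells, cell 16 was female and cells 23, 25, 28 and 30 were male. Values without these cells therefore also differ in the sex of the cells compared. Values without the 9 cells are given below for the list counts that they changed (for the study's modules, where the larger count moved by over 1.5 times) and for genes with a printed ratio that crossed 2-fold, and whether the glial transcripts had a part in the differences was not tested.

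Of 24134 genes in the table, 9023 had a mean of the side means of at least 10 CPM and entered the comparison. At least 2-fold higher on the SNT side were 419 genes (4.64%), and at least 2-fold lower were 470 (5.21%). The median log2 ratio was -0.09. Female and male cells taken apart gave medians of -0.10 and -0.05, and 284 of the higher genes and 195 of the lower ones were beyond 2-fold in both sexes. Across genes the female and male log2 ratios had a Pearson r of 0.624, a description over genes that share the same libraries. Cell to cell, the correlation of expression ran from 0.475 to 0.906, so no pair of cells looked like a library deposited more than once. Leaving out the cells with Apoe above 1000 CPM, with entry decided anew, 558 of 8766 genes were at least 2-fold higher and 551 lower. Both numbers exceed those of all cells, and list counts without those cells are to be read beside them.

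**Figure D2:**
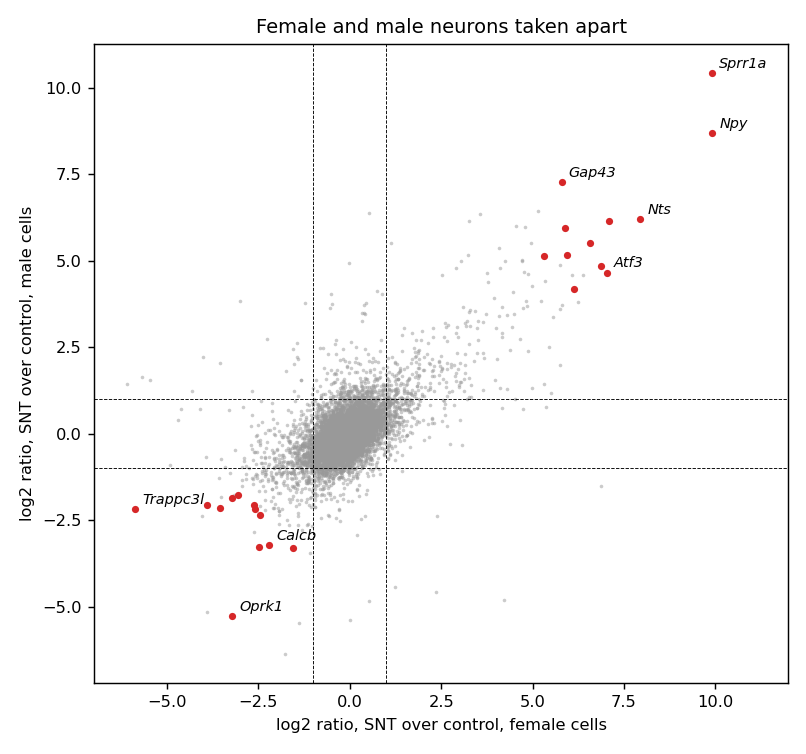
Each grey point is 1 of 9023 genes, with its log2 ratio of SNT over control in female cells on the x axis and in male cells on the y axis, and dashed lines at a 2-fold difference. The 12 genes named as higher and the 12 named as lower, in red, lie beyond 2-fold in both sexes because the naming rule asked for it, and Sprr1a and Npy stand farthest out.

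The SNT side was not uniform. Atf3, an activating transcription factor switched on by axotomy, was between 704 and 1778 CPM in 11 SNT cells and between 0 and 13.9 CPM in the other 11, and the highest control cell held 28.997 CPM. Thus 11 of 22 SNT cells (50%, interval 28.2 to 71.8%) exceeded every control cell, 8 of them female and 3 male. Pvalb, the calcium buffer parvalbumin, was between 614 and 937 CPM in 6 further SNT cells, 3 female and 3 male. None of the 7 control cells passed 500 CPM of Pvalb (0%, interval 0 to 40.96%), and the highest held 17.2 CPM. None of the 6 was among the 11 cells with high Atf3. The 5 remaining SNT cells, 3 female and 2 male, had neither. The limit of 500 CPM was set after the values had been seen, and no average over these sets of cells was compared.

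Nefh differed along the same lines. It was between 1017 and 2822 CPM in the 11 Atf3 cells, between 5678 and 8013 CPM in the 6 Pvalb cells, and between 1536 and 5280 CPM in the other 5. Of the 7 SNT cells below every control cell, 6 were Atf3 cells, and both cells above every control cell were Pvalb cells. Snap25, a membrane protein of synaptic vesicle fusion, was spread even further. The Atf3 cells held 544 to 2233 CPM, below every control cell (2390 to 4122 CPM). The Pvalb cells held 5240 to 8031 CPM, above every control cell, and the log2 ratio of the side means was still only -0.09. Klf7, a transcription factor of neuronal growth, had the opposite arrangement, with 155 to 288 CPM in the Atf3 cells, 3.181 to 64.4 CPM in the Pvalb cells and 65.0 to 138 CPM in the control cells. Snap25 and Klf7 were chosen after their values were seen. A mean over the SNT side therefore mixes cells that lie on opposite sides of the control range.

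For 64 of the 9023 genes (0.709%), the SNT cells above every control cell were exactly the 11 Atf3 cells. This number includes Atf3 itself, which defined the cells. For 19 genes (0.211%) they were exactly the 6 Pvalb cells. Only 2 genes (0.0222%) had all 22 SNT cells above all 7 control cells. One was Ctnnb1, which encodes β-catenin, with 173 to 328 CPM on the SNT side and 112 to 139 CPM on the control side. The other was Fam155a, with 29.9 to 94.7 CPM against 7.239 to 29.6 CPM. Their log2 ratios were 0.88 and 1.35. Of the 9023 genes, 40 were below every control cell in exactly the Atf3 cells, 22 in exactly the Pvalb cells, and 10 in exactly these 17 cells.

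Among 8 injury transcription factors that entered, the median log2 ratio was 0.81 and none was at least 2-fold lower. On the SNT side 3 were at least 2-fold higher (37.5%, beside 4.64% of all genes). Jun joined them when the cells with Apoe above 1000 CPM were left out. Sox11, a factor of neuronal development and regrowth, was between 252 and 517 CPM in the Atf3 cells, between 0 and 23.9 CPM in the other SNT cells and between 0 and 25.9 CPM in the control cells. Its log2 ratio was 4.03, beside 5.74 for Atf3. Smad1, which carries bone morphogenetic protein signals, was between 93.6 and 231 CPM in the Atf3 cells and between 11.1 and 37.2 CPM in the control cells, a log2 ratio of 1.73.

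Jun, the AP-1 subunit, did not pass 2-fold by mean. It was between 291 and 517 CPM in the Atf3 cells, above all control cells (56.7 to 270.2 CPM), and as low as 1.196 CPM in SNT cell 10. The log2 ratio of its side means was 0.75, and 1.13 without the cells with Apoe above 1000 CPM. Atf4 and Ddit3, factors of the integrated stress response, had log2 ratios of 0.12 and -0.53.

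With 1 CPM added to each mean, Sprr1a, a small proline-rich protein that promotes axon outgrowth, had the largest log2 ratio. With 0.1 CPM added, Npy, which was at 0 on the control side, came before it (12.90 beside 11.67). Sprr1a was between 786 and 4867 CPM in the 11 Atf3 cells and between 0 and 2.10 CPM in the other 11 SNT cells. It was at 0 in 6 of 7 control cells, with 2.47 CPM in control cell 1. The SNT mean of Sprr1a was 1478 ± 1731 CPM (SD, n = 22) and the log2 ratio 10.10. Summed over cells, the control side held 2 counts, and the ratio of the summed levels was 4402 with a counting interval of 1218 to 36349.

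Of 6 axotomy-induced neuropeptides that entered out of 14 listed, 5 were at least 2-fold higher (83.3%, beside 4.64% of all genes). The remaining 1 was lower (16.7%, beside 5.21%). Npy, neuropeptide Y, was at 0 in all 7 control cells and in 11 SNT cells. In the Atf3 cells it ran from 9.28 CPM in SNT cell 16 to 6483 CPM in SNT cell 13. With 3 counts over the control side as the floor, it was at least 1307-fold higher, and at least 873-fold without SNT cell 13. Nts, which encodes neurotensin, was between 95.2 and 1262 CPM in the Atf3 cells and at most 2.63 CPM in any other SNT cell. A single count of Nts was seen on the control side, and the log2 ratio was 7.35. Ucn, the corticotropin-releasing factor relative urocortin, was between 2.42 and 263 CPM in the Atf3 cells and at 0 in all others of both sides, which made it at least 73.3-fold higher.

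Gal and Adcyap1 were less evenly spread. Gal, which encodes galanin, reached 2147 CPM in SNT cell 8 and 694 CPM in SNT cell 4, yet 6 of the 11 Atf3 cells stood at 0. Its log2 ratio of 6.00 came from the 5 Atf3 cells above every control cell (control maximum 4.30 CPM), and was 4.67 without SNT cell 8. Adcyap1, the gene of PACAP, reached 1102 CPM and exceeded every control cell in 10 Atf3 cells and 1 Pvalb cell, with a log2 ratio of 5.14, and of 6.57 without control cell 1. Nmb, neuromedin B, was the lower gene, with a log2 ratio of -1.99 in all cells, -4.61 in female and 0.71 in male cells. It rested on control cell 5, which held 144.8 CPM, and the ratio was 0.12 without that cell.

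Outside these lists, the naming rule gave 6 more genes. Gpr151, an orphan receptor, was at 0 in all control cells, between 32.8 and 557 CPM in the Atf3 cells and at most 1.31 CPM in other SNT cells, at least 227-fold higher. S100a11, a calcium-binding protein, was between 94.4 and 641 CPM in the Atf3 cells and at most 4.30 CPM in the control cells. Pappa2 and Pappa, proteases that cleave insulin-like growth factor binding proteins, had log2 ratios of 5.70 and 5.58. Pappa2 was between 39.4 and 200 CPM in the Atf3 cells and at 0 in every control cell, whereas Pappa was above every control cell in 9 Atf3 cells and 3 Pvalb cells.

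Pde1a, a calmodulin-dependent phosphodiesterase, was above every control cell in 16 SNT cells, 11 of them Atf3 cells and 4 Pvalb cells. The Atf3 cells reached 517 CPM and the Pvalb cells 17.6 CPM, against at most 1.92 CPM on the control side. Cyp1b1, a cytochrome P450, reached 480 CPM in the Atf3 cells and 68.2 CPM in SNT cell 22, with a log2 ratio of 5.90. Counting also Cdkn1a and Fst, genes chosen after their values were seen, the group included regulators outside axon growth. Cdkn1a, the cell cycle inhibitor p21, was between 332 and 765 CPM in the Atf3 cells with a control maximum of 99.9 CPM, and Fst, the activin antagonist follistatin, was between 36.1 and 478 CPM with a control maximum of 9.67 CPM.

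**Figure D3:**
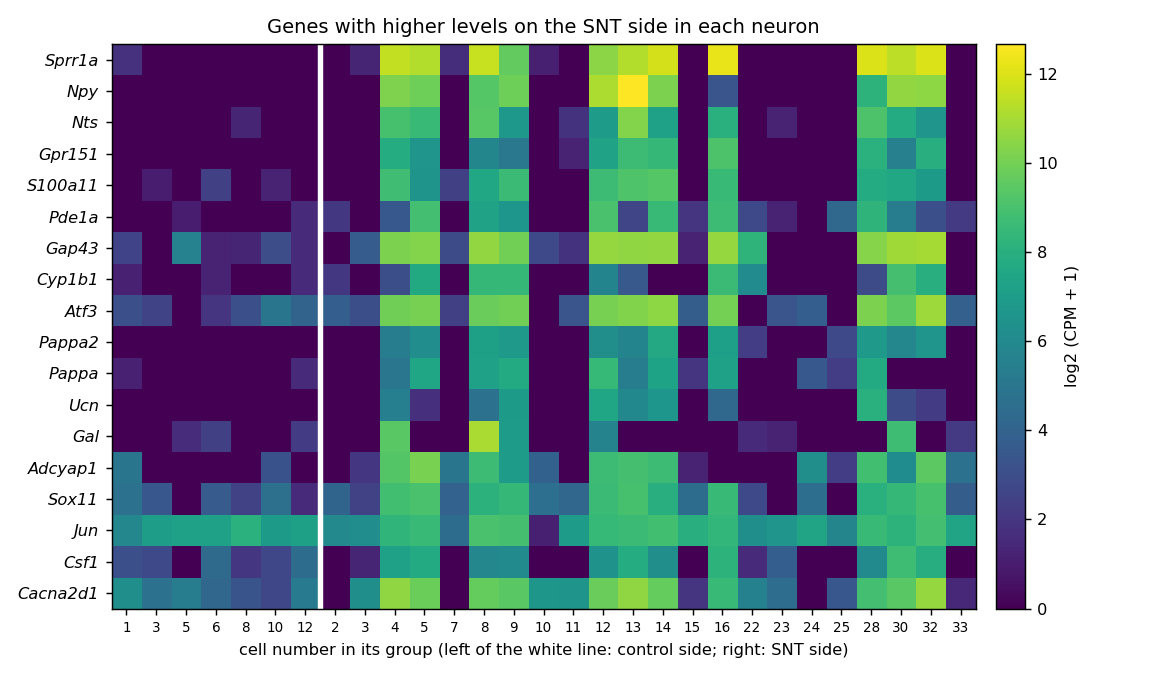
Columns are the 29 neurons by their number, control cells left of the white line and SNT cells right of it, and rows are the 12 genes named as higher followed by Gal, Adcyap1, Sox11, Jun, Csf1 and Cacna2d1, with colour giving log2 (CPM + 1). The same 11 SNT columns are bright in most rows, and Gal is bright in 5 of them.

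Promoter sequence was available in RefSeq on build GRCm38.p6 for 9 of the 12 genes named as higher and for 10 of the 12 named as lower, and the 250 bases before each gene start were searched. The AP-1 motif is TGACTCA or TGAGTCA, which are each other's reverse complement. The CRE motif is TGACGTCA, its own reverse complement, which does not overlap a full AP-1 motif in the sites shown. An AP-1 motif was present for 3 of the 9 higher genes (Sprr1a, S100a11 and Nts) and for 1 of the 10 lower ones (Tmem54), beside 5.16% of all 27025 genes with a promoter in the table and 3.63% of the 6894 matched genes that entered. A CRE motif was present for Ucn only, beside 1.769% and 3.4%. Of the 64 genes above every control cell in exactly the Atf3 cells, 46 matched, 3 held an AP-1 motif (Sprr1a, S100a11 and Srxn1) and 2 a CRE motif (Ucn and Mturn). A match of letters is a description of the window and not a bound site. The windows below show the motif in capitals, written 5′ to 3′ on the strand of the gene.
Sprr1a, chr3:92485997-92486051, minus strand: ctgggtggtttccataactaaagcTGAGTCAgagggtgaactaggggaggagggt
Sprr1a, chr3:92485967-92486021, minus strand: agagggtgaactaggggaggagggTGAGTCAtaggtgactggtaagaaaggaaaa
S100a11, chr3:93520336-93520390, plus strand: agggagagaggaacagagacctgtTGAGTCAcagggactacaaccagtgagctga
S100a11, chr3:93520434-93520488, plus strand: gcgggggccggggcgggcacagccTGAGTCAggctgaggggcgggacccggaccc
Nts, chr10:102490595-102490649, minus strand: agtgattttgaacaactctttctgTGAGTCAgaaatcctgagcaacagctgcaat
Ucn, chr5:31138908-31138963, minus strand: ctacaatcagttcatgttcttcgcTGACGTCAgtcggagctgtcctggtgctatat
Sprr1a and S100a11 each held the motif at 2 places, and in all 3 genes it was the TGAGTCA form on the strand of the gene.

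Growth and regeneration proteins were higher in many members. Of 30 listed, 23 entered, 15 were at least 2-fold higher (65.2%, beside 4.64% of all genes), none was lower, and the median log2 ratio was 1.61. Gap43, a growth cone protein, was between 1001 and 2015 CPM in the Atf3 cells. It was 300.2 CPM in SNT cell 22 and at most 11.8 CPM in the other SNT cells, and the control cells ranged from 0 to 47.6 CPM. Flrt3, a cell surface protein of neurite growth, was between 339 and 917 CPM in the Atf3 cells with a control maximum of 41.4 CPM. Gadd45a, a stress-response protein, was between 70.8 and 626 CPM in the Atf3 cells with a control maximum of 39.96 CPM. Csf1, the cytokine that acts on microglia and macrophages, was between 56.9 and 429 CPM in the Atf3 cells and at 0 in all 6 Pvalb cells. Hspb1, a heat shock protein of this list, went the other way in the Pvalb cells, all 6 of which lay below every control cell, and had a log2 ratio of -0.27.

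Of 30 axon cytoskeleton genes, 6 were at least 2-fold higher (20%, beside 4.64% of all genes), none was lower, and 24 stayed within 2-fold. The higher genes numbered 7 without the cells with Apoe above 1000 CPM. Ina, the intermediate filament internexin, was at 0 in all control cells and had a mean of 50.6 CPM on the SNT side, at least 94.5-fold higher. That mean came from Pvalb cells 2, 7, 15 and 25 and Atf3 cells 8, 9 and 16, which held 103.1 to 203.9 CPM. SNT cell 10 held 1.196 CPM of Ina, and the remaining SNT cells, most Atf3 cells among them, were at 0. Stmn4, a microtubule destabiliser, was above every control cell in all 11 Atf3 cells and had a log2 ratio of 4.62. Tubulins Tuba1c, Tubb6 and Tubb2b had log2 ratios of 3.365, 3.331 and 3.07, and without control cell 1 those of Tubb6 and Tubb2b were 4.08 and 3.805. Tuba1a, a tubulin of growing axons, was between 8684 and 16940 CPM in the Atf3 cells, above all control cells (4593 to 6992 CPM), and its log2 ratio was 0.43. Nefl, the neurofilament light chain, lay below every control cell in all 11 Atf3 cells and 3 others, with a log2 ratio of -0.96, which ran from -1.09 to -0.69 as single cells were left out. Its SNT mean was 5926 ± 3663 CPM (SD, n = 22) and its control mean 11557 ± 5929 CPM (SD, n = 7).

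Large myelinated neuron markers had a median log2 ratio of -0.12, with 5 of 27 at least 2-fold higher (18.5%, beside 4.64% of all genes) and 2 lower (7.41%, beside 5.21%). Without the cells with Apoe above 1000 CPM the median was 0.25, with 7 higher and 4 lower. In all cells the lower genes were Cacna1h, a T-type calcium channel, and Calb1, the calcium buffer calbindin, with log2 ratios of -1.58 and -1.81. Cacna1h was at 1.81 without control cell 1, and Calb1 at -0.70 without control cell 8 and at 1.76 without the cells with Apoe above 1000 CPM. The 5 higher genes were Pvalb, Whrn, Runx3, Spp1 and Etv1, with log2 ratios of 5.18, 4.62, 4.40, 3.485 and 2.06, and Spp1 was at 4.14 without control cell 6. Runx3, a transcription factor of proprioceptors, was between 76.3 and 136 CPM in the Pvalb cells, at most 32.02 CPM in the Atf3 cells, at 0 in the other 5 and at most 1.92 CPM in the control cells. Whrn, a scaffold protein of proprioceptors, was between 35.2 and 144 CPM in the Pvalb cells and at most 2.67 CPM in any other cell of either side. Etv1, a transcription factor of muscle afferents, was between 925 and 1518 CPM in the Pvalb cells, at most 36.6 CPM in the Atf3 cells, at most 651 CPM in the other 5 and at most 164 CPM in the control cells. Without the 6 Pvalb cells, 3 of the 27 markers were at least 2-fold higher and 5 lower, and the log2 ratios were 1.93 for Pvalb and -0.05 for Whrn. With no control cell of this kind, these data cannot tell a higher level per cell from a greater share of such cells among those picked.

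The 19 genes above every control cell in exactly the Pvalb cells included Clec2l, Gprc5b, Sptb, Atp11a and Esrrg, which were chosen after their values were seen. Atp11a, a phospholipid flippase, was between 2019 and 2417 CPM in the Pvalb cells and at most 585 CPM in the control cells. Sptb, β-spectrin, was between 270.4 and 426 CPM against at most 113 CPM. Esrrg, an estrogen-related nuclear receptor, was between 147 and 464 CPM against at most 82.7 CPM. In the opposite direction, Jup, the junction protein plakoglobin, was between 6.31 and 56.7 CPM in the Pvalb cells and at least 172 CPM in every control cell.

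Receptors that separate kinds of large neurons varied within both sides. Ret, the receptor subunit shared by GDNF family ligands, was between 232 and 1163 CPM in the Atf3 cells, between 54.8 and 87.2 CPM in the Pvalb cells and between 112 and 1342 CPM in the control cells. Its co-receptor Gfra1 was between 827 and 2159 CPM in the Atf3 cells, above all control cells (81.4 to 670.0 CPM), and between 6.31 and 56.4 CPM in the Pvalb cells, below all of them. Gfra1 had a log2 ratio of 1.38 and was the only one of 12 neurotrophic and cytokine receptors to be at least 2-fold higher (8.33%, beside 4.64% of all genes). Lifr, a receptor subunit for leukaemia inhibitory factor, was above every control cell in all 11 Atf3 cells and 1 other, with a log2 ratio of 0.77.

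Gfra2 and Ngfr were the lower members of that list (16.7%, beside 5.21% of all genes), with log2 ratios of -2.28 and -1.42. Without the cells with Apoe above 1000 CPM 4 of the 12 were lower. Gfra2, the neurturin co-receptor, had a median of 0 on the SNT side and of 120 CPM on the control side, and the ranges overlapped. Ngfr, the low-affinity neurotrophin receptor, was below every control cell in 5 Atf3 cells, and reached 2134 CPM in control cell 5. Its ratio was -0.67 without that cell and -0.31 in male cells. Ntrk2, the receptor for brain-derived neurotrophic factor, was between 1.21 and 1494 CPM on the SNT side and between 21.7 and 1029 CPM on the control side. Its highest cells were SNT cell 10 and control cell 1, which also held the highest Cacna1h of each side, 468 and 558 CPM. Ntrk3, the neurotrophin-3 receptor, was highest in SNT cell 22 (959 CPM) and control cell 5 (758 CPM). Its log2 ratio was 0.64 in all cells, -0.54 in female and 3.62 in male cells. It was 2.92 without control cell 5, and -0.34 without the cells with Apoe above 1000 CPM.

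The rule named 12 lower genes, and for all 12 the SNT cell with the highest level was 1 of the 5 with neither high Atf3 nor high Pvalb. Oprk1, the kappa opioid receptor, was at 0 in 21 of 22 SNT cells and reached 86.2 CPM in control cell 12, but 3 control cells were at 0 too. Its log2 ratio was -4.60, and -0.73 without the cells with Apoe above 1000 CPM, since the 3 control cells with over 30 CPM all had high Apoe. It was -3.94 without control cell 12. Trappc3l, a vesicle tethering factor, behaved alike, with a log2 ratio of -3.27 and of -0.50 without those cells (-4.66 to -2.66 with single cells left out). Kcng4, a modulatory potassium channel subunit, had a log2 ratio of -2.96 and of 0.60 without those cells, so its direction turned (-3.93 to -2.05 with single cells left out).

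Other lower genes held without the cells rich in Apoe. Hs3st1, a heparan sulfate sulfotransferase, had a median of 0 on the SNT side and of 48.6 CPM on the control side, with a log2 ratio of -2.74 and of -3.35 without those cells (-3.96 without SNT cell 23). Hoxd1, a homeobox factor, was between 5.73 and 150.0 CPM in the control cells and at 0 in 16 SNT cells. It lay below every control cell in 11 Atf3, 6 Pvalb and 1 of the other 5 cells. Rem2, a small GTPase that inhibits calcium channels, was at most 2.33 CPM in the Atf3 cells, between 5.17 and 282 CPM in the control cells and up to 204 CPM in SNT cell 23. Amigo2, an adhesion protein, was at 0 in all 11 Atf3 cells, between 1.23 and 188 CPM in the control cells and up to 107 CPM in SNT cell 22.

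Htr3b, a serotonin-gated channel subunit, was at 0 in 19 SNT cells and reached 160 CPM in control cell 10 and 39.5 CPM in SNT cell 10. Medag and Tmem54 were below every control cell in 18 and 17 SNT cells, with log2 ratios of -2.66 and -2.64. Col11a1, a fibrillar collagen chain, had a control median of 32.05 CPM and a log2 ratio of -2.42, which was -1.29 without control cell 12. For Calcb the log2 ratio was -2.54 (-3.77 without SNT cell 3 and -1.74 without control cell 5), with 2 control cells (190 and 162 CPM) far above the other 5 and with the doubt about shared reads given above.

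Among genes below every control cell in all 17 Atf3 and Pvalb cells but in none of the other 5, chosen after their values were seen, were Tusc5, Ankrd29, Ghr and Lrrn1. Lrrn1, a leucine-rich neuronal membrane protein, was between 50.4 and 277 CPM in those 17 cells, between 460 and 958 CPM in the other 5 and between 373 and 962 CPM in the control cells. Ghr, the growth hormone receptor, was at most 19.4 CPM in the 17 cells and between 31.8 and 87.5 CPM in the control cells. Genes below every control cell in the Atf3 cells alone included Tesc, the gene of a calcineurin B-like protein, with 12.8 to 58.3 CPM against 86.9 to 363 CPM.

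**Figure D4:**
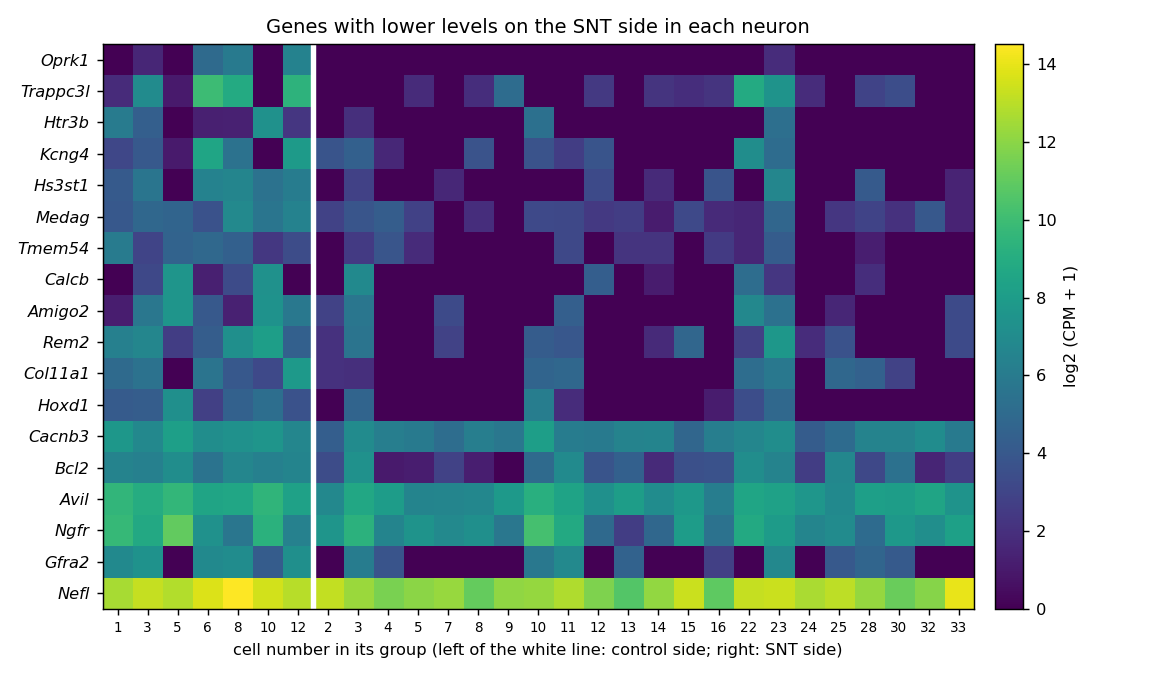
Columns are the 29 neurons as numbered in their groups, control cells left of the white line, and rows are the 12 genes named as lower followed by Cacnb3, Bcl2, Avil, Ngfr, Gfra2 and Nefl, with colour giving log2 (CPM + 1). SNT cells 3, 10, 11, 22 and 23, which had neither high Atf3 nor high Pvalb, keep colour in rows that are dark in the other SNT cells.

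Of 10 voltage-gated sodium channel genes that entered, none was at least 2-fold higher and 2 were lower (20%, beside 5.21% of all genes), with a median of -0.29. Leaving out the cells with Apoe above 1000 CPM, 1 was higher and 3 were lower, with a median of -0.51. The lower genes in all cells were Scn2b and Scn11a, and each rested on control cell 5. Scn2b was at 146 CPM in that cell and at 0 in the other control cells, and its log2 ratio of -3.47 became 0.98 without it. Scn11a, a nociceptor channel, was 123 CPM in control cell 5 and at most 4.96 CPM in the other control cells, and its log2 ratio of -2.35 became 0.76 without that cell. Scn9a, the channel Nav1.7, had similar means of 345 ± 271 CPM (SD, n = 22) and 354 ± 168 CPM (SD, n = 7), but the Pvalb cells were at most 56.7 CPM and 5 of them lay below every control cell. Scn10a stayed at or below 4.64 CPM in all 29 cells.

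Of 28 potassium channel genes, 3 were higher (10.7%, beside 4.64% of all genes) and 5 lower (17.9%, beside 5.21%). These numbers were 2 and 7 without the cells with Apoe above 1000 CPM. Kcnip1, a channel-interacting protein, and Kcnc1, a fast delayed rectifier, had log2 ratios of 3.698 and 2.61, and both were 0.36 without the 6 Pvalb cells. The third, Kcnma1, the large-conductance calcium-activated channel, had a log2 ratio of 1.36, which was 1.96 without control cell 1 and 0.81 without the cells with Apoe above 1000 CPM. Among the lower genes, Kcnh5 had a median of 2.41 CPM against 63.5 CPM, and Kcnd1 was between 9.60 and 128 CPM on the SNT side and between 51.6 and 169 CPM on the control side. Of 11 calcium channel genes, 2 were higher and 2 lower (18.2% each, beside 4.64% and 5.21% of all genes). These numbers were 4 and 2 without the cells with Apoe above 1000 CPM. Cacna2d1, the α2δ1 subunit that binds gabapentin, was between 387 and 1639 CPM in the Atf3 cells and at most 9.78 CPM in the Pvalb cells, against 5.52 to 77.7 CPM in the control cells. Its log2 ratio was 3.98. Cacnb3, a β subunit, was below every control cell in 18 of 22 SNT cells, with a log2 ratio of -1.07, and of -0.89 without control cell 5. Of 14 HCN, TRP and mechanosensory channels, 1 was at least 2-fold higher (7.143%, beside 4.64% of all genes). It was Asic1, an acid-sensing channel, with a log2 ratio of 2.84. Asic1 was between 115.4 and 321.8 CPM in the Pvalb cells and at most 99.58 CPM in the other SNT cells. The highest control cell held 34.52 CPM, with 12 SNT cells above every control cell and 6 below. Of the 14 genes, 2 were higher and 1 lower without the cells with Apoe above 1000 CPM. Piezo2, the touch channel, had a log2 ratio of -0.31.

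Of 23 synaptic genes, 19 stayed within 2-fold, 3 were higher (13.04%, beside 4.64% of all genes) and 1 was lower (4.35%, beside 5.21%). These numbers were 4 higher and 2 lower without the cells with Apoe above 1000 CPM. The lower gene in all cells was Cplx2, a complexin of vesicle release, which held 932 CPM in control cell 5, and its log2 ratio of -2.07 was 0.01 without that cell. Sv2a, a vesicle glycoprotein, was at 0 in most control cells (maximum 3.699 CPM) and reached 200 CPM on the SNT side, a log2 ratio of 5.21 (5.82 without control cell 1) over 13 cells that exceeded every control cell, 6 of them Pvalb cells. Syt4, a synaptotagmin, was above every control cell in exactly the Atf3 cells and had a log2 ratio of 2.16. Among death and survival genes, Bcl2, which opposes apoptosis, was between 0 and 41.6 CPM in the Atf3 cells, all below the control cells (45.8 to 140 CPM), and had a log2 ratio of -1.30. Pan-neuronal markers had 2 of 11 lower (18.2%, beside 5.21% of all genes), the sensory genes Avil and Prrxl1, with log2 ratios of -1.21 and -1.40.

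Housekeeping groups stayed close to 0. None of 27 oxidative phosphorylation subunits and none of 32 cytosolic ribosomal protein genes passed 2-fold, with medians of 0.03 and 0.09. Of 19 genes of cholesterol and fatty acid synthesis, only Dhcr7 passed 2-fold, and it was lower (5.26%, beside 5.21% of all genes). Its log2 ratio was -1.03 (-1.14 to -0.90 with single cells left out), while Fasn and Acly had ratios of 0.70 and 0.60. Of 18 genes of the integrated and unfolded protein stress responses, 2 were lower (11.1%, beside 5.21% of all genes) and none higher, with a median of -0.48. The 2 were Ddit4 and Phgdh, and without the cells with Apoe above 1000 CPM neither passed 2-fold and the median was -0.27. Ddit4 was also within 2-fold without control cell 8 (-0.82).

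**Figure D5:**
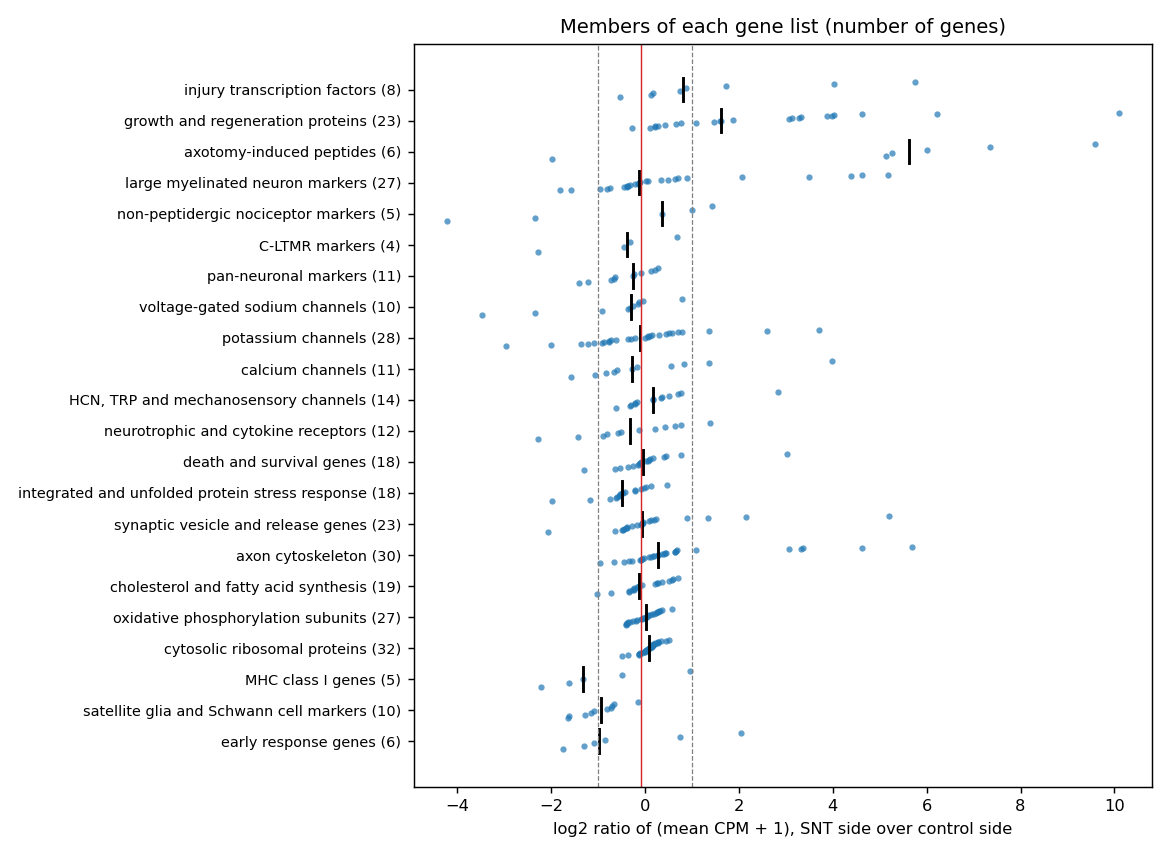
Each point is 1 gene that entered, placed by its log2 ratio of (mean CPM + 1) of SNT over control and grouped by list with the number of genes in brackets, lists with at least 4 genes being shown. Black bars are list medians, dashed lines a 2-fold difference and the red line the median of all genes at -0.09, and the growth proteins and neuropeptides lie to the right of it, except Hspb1 and Nmb.

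Glial markers and MHC class I genes had negative medians, which changed without the cells with Apoe above 1000 CPM. Which cells these transcripts came from was not tested. Of 10 markers of satellite glia and Schwann cells, 5 were lower on the SNT side (50%, beside 5.21% of all genes) and none higher, with a median of -0.94. Their summed level was between 323 and 9475 CPM on the SNT side and between 624 and 9673 CPM on the control side, with medians of 856 and 7042 CPM. Without the cells with Apoe above 1000 CPM the median was 0.30, with 4 higher and none lower. Apoe is itself a member of this list. MHC class I genes had 3 of 5 lower (60%, beside 5.21% of all genes) and a median of -1.32. Without those cells the same 5 genes had a median of 0.15, with none lower and 1 higher. H2-K1 had a log2 ratio of -2.22, and of 0.62 without those cells. Control cells 1, 3 and 5 were then at 0 for H2-K1 and no SNT cell passed 5.60 CPM, so 0.62 is a value near the floor.

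Early response genes had 3 of 6 lower (50%, beside 5.21% of all genes), among them Fos and Egr1 with log2 ratios of -1.74 and -1.31. Btg2 was the 1 higher gene (16.7%, beside 4.64%), with a log2 ratio of 2.04. Without the cells with Apoe above 1000 CPM 2 were lower and the median moved from -0.98 to -0.27. Such genes also respond to dissociation, and the part of handling was not tested. Of 14 immune cell markers, none entered, and their sum reached 390 CPM in 1 SNT cell and at most 7.382 CPM in the control cells, where 11 of the 14 were at 0 throughout. Of 10 vascular and fibroblast markers 2 entered, Dcn with a log2 ratio of 3.81 and Col1a2 with 0.09. One of 5 erythrocyte markers entered, Hba-a1 with a log2 ratio of -1.12, and of -0.85 without control cell 5.

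Non-peptidergic and peptidergic markers were low in most cells, and 7 of 19 non-peptidergic markers were at 0 in all 29 cells. Of these markers 5 entered, Plxnc1 and Grik1 at least 2-fold higher (1.001 and 1.42) and P2rx3 and Scn11a lower. Each direction made up 40%, beside 4.64% of all genes higher and 5.21% lower. Plxnc1 lay at the 2-fold limit, and was 0.39 without the cells with Apoe above 1000 CPM and 0.78 to 2.08 as single cells were left out. P2rx3 was 531 CPM in control cell 5 alone, against at most 12.9 CPM in the other control cells and 23.4 CPM on the SNT side, and its log2 ratio of -4.21 was 0.10 without that cell. Of 9 markers of C-fibre low-threshold mechanoreceptors 4 entered, with Gfra2 the only lower one (25%, beside 5.21% of all genes). Without the cells with Apoe above 1000 CPM 2 were lower. The 9 were not low as a list, with median sums of 521.8 (SNT) and 796.2 CPM (control). Piezo2 had the highest mean of the 9 in both groups. Th stayed at or below 8.27 CPM in all cells, but none of the 9 was at 0 in all 29 cells. Of 13 peptidergic markers 2 entered, Calcb and Kit, both lower (100%, beside 5.21% of all genes), and 8 of the 13 were at 0 in all control cells. Kit went from -1.10 to 0.57 without the cells with Apoe above 1000 CPM. Control cells 1, 3 and 5 were then at 0 for Kit and no SNT cell passed 5.60 CPM, so 0.57 is a value near the floor.

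The study grouped its regulated genes into modules by co-expression, and the orange, magenta and gray modules were chosen partly on these same cells, so their direction is not independent evidence. Over all genes 4.64% were higher and 5.21% lower. Of 285 orange genes that entered, 208 were at least 2-fold higher and none lower. Of 47 magenta genes, 18 were higher and none lower. Of 315 gray genes, 154 were lower and none higher. The other 7 modules came from day 3 neurons. The blue one had 119 of 316 genes higher (37.7%) and 1 lower, the black one 40 of 185 higher (21.6%) and 4 lower, and the green one 26 of 162 higher (16.05%) and 3 lower. The red, brown, turquoise and yellow ones had 42 of 199, 38 of 281, 53 of 314 and 70 of 209 genes lower (21.1%, 13.5%, 16.9% and 33.5%), with 1, 4, 17 and 18 higher. In the yellow module these numbers were 28 lower and 53 higher without the cells with Apoe above 1000 CPM, and in the turquoise one 80 lower and 19 higher.

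In the day 7 neurons with Calca of at least 100 CPM, Atf3 exceeded every control cell of that class in 1 of 11 SNT cells (9.09%, interval 0.230 to 41.3%), beside 11 of 22 here. That cell was SNT cell 29, with 1098 CPM of Atf3. Sprr1a had side means of 337 and 0.64 CPM there, Npy 291 and 0 CPM, and Sox11 52.9 and 19.6 CPM. Gap43 was also high on the control side of that class, with means of 1285 and 718 CPM, where the control cells described here reached 47.6 CPM. Pvalb had means of 4.00 and 2.49 CPM. Nefh was high there too, between 347 and 4638 CPM in the SNT cells with a median of 2609. In the control cells of that class it was between 127 and 3630 CPM with a median of 1981. The cells of both classes came from the same sides, and the difference between the classes was not tested.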

How the data were processed

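Single DRG neurons were sequenced after Smart-seq2 amplification. Per the labels and the study's methods, the authors separated libraries with CASAVA 1.8.2, aligned reads to mm9 with Bowtie2 and quantified RefSeq exons with RSEM after removing ribosomal RNA, and they left out 11 outlying cells. The deposited values are named TPM, but library totals differ and 87.4% to 93.6% of the values above 0 in these cells were whole numbers, so they were treated as the authors' expected counts. They hold no gene lengths, and levels of different genes are not comparable. The second deposited table, with the outliers and the pooled libraries, was not used here.

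Expected counts were divided by the cell's total to give CPM (python 3.11.15, pandas 2.3.3, numpy 2.4.6, scipy 1.17.1, matplotlib 3.10.9). Genes entered with a mean of both side means of at least 10 CPM, and the log2 ratio used the means plus 1 CPM, which understates the ratio of low genes. A gene was counted beyond a log2 ratio of 1 in size. The ratio script was tested on simulated data. No test was run, because the labels name no animal and replicate numbers only name cells. Spreads are SDs over cells. Counting intervals are exact, and no molecular identifiers were used, so they cover counting error only. The 3-count floor over the summed cells of a side was 0.210 CPM for SNT and 0.555 CPM for control. Cells were picked singly by hand and no doublet caller was run. Sex labels matched Xist and Y-linked counts in all 29 cells.

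Named genes were Calca and Nefh, the 12 largest differences in each direction that were beyond 2-fold in both sexes with medians of the same sign (264 higher and 190 lower genes met this), up to 4 extreme or defining members of each list, and genes the study names for these cells. Other genes in the text were chosen after their values were seen. The members, lists and rules were chosen with earlier results of these data known. Alternatives were the Calca limit, medians, summed counts, the pseudocount, the filter, median of ratios scaling, each sex alone and each cell left out. Leaving out the cells high in Pvalb or in Apoe was added after seeing the data.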

Additional observations from a re-analysis of the deposited data

Results flagged for a closer look

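In 35 genes named for these neurons, the 7 control cells were searched for a cell far from the others, by the gap to its nearest neighbour relative to the whole range. The limit used flags about 1 in 20 groups of normally distributed values. Zeros in most cells make a single low value stand out, so that rate does not apply to these levels. A cell far from the others was found for 15 genes. Control cell 5 stood apart in 6 of them, with 531 CPM of P2rx3, 758 CPM of Ntrk3, 123 CPM of Scn11a, 150.0 CPM of Hoxd1, 47.6 CPM of Gap43 and 8.27 CPM of Th. Control cell 1 stood apart with 1029 CPM of Ntrk2, 64.1 CPM of Tmem54, 2.47 CPM of Sprr1a and 2.47 CPM of Scn10a. Control cell 12 held 234 CPM of Col11a1 and 17.2 CPM of Pvalb, and control cell 10 held 160 CPM of Htr3b. Control cell 8 held 1.48 CPM of Nts and control cell 6 held 4.30 CPM of S100a11.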

How the results depend on the processing

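Numbers of genes at least 2-fold higher and lower were 419 and 470, and moved by over 1.5 times with a filter of 1 CPM (908 and 946), with no filter (1063 and 989) and with a pseudocount of 10 (279 and 243). Leaving out each cell gave 399 to 455 and 432 to 545. Medians over cells gave 286 and 683 (29.5% higher, against 47.1%), and median of ratios scaling 488 and 394 (55.3%). All cells had Nefh above 100 CPM, so that limit left the values as they were. P2rx3 turned to 1.65 in male cells only, 0.38 with medians and 0.10 without control cell 5 (single cells left out, -4.58 to 0.10). Scn11a turned to 2.23 in male cells only and 0.76 without control cell 5 (-3.40 to 0.76). Kcng4 turned to 0.60 without the cells rich in Apoe, which were left out after seeing the data. The median of the peptidergic markers, of which 2 entered, was 0.12 with no filter and -5.55 with medians over cells. With medians over cells, list medians moved to -0.30 for death and survival genes, -0.67 for pan-neuronal markers and -4.44 for glial markers. With Calca under 200 CPM, which adds control cell 14, they moved to -5.23 for non-peptidergic markers and -0.68 for the turquoise module. Neuropeptides moved to 1.42 with no filter, and MHC class I genes to -0.16 without the cells rich in Apoe, with entry decided anew. The median of vascular and fibroblast markers, of which 2 entered, was 4.86 in female cells only, 4.102 with summed counts, 0.0893 with a filter of 1 CPM, 0.0865 with no filter, 5.11 without the cells rich in Apoe and 1.76 to 4.35 without single cells. Other causes were not tested. No paired analysis was possible because the labels name no animal and the replicate numbers only name cells, so no cell of a side could be tied to a cell of the other. Both sides hold female and male cells of operated mice. Ratios within each sex are given, but they do not replace a pairing by animal. With 7 control cells, a kind of neuron absent from that side may have been missed in picking.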
